A study of Mus musculus with 2 samples.

Results

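The genes described here form the core of oxygen sensing in mammalian cells, measured in mouse hematopoietic stem cells (HSC), the rare marrow cells that renew themselves and give rise to all blood lineages. The 10 members were taken by symbol: Hif1a, Epas1, Arnt, Egln1, Egln2, Egln3, Vhl, Hif1an, Cited2 and Bnip3, of 21474 annotated protein-coding genes in the gene tables. All 10 were present in the tables. The series holds 1 group of 2 libraries, HSC replicate 1 and HSC replicate 2, from adult C57BL/6J mice, males of 5 to 6 weeks, with no genotype or treatment given beyond the strain. Total RNA (100 ng per library) was depleted of ribosomal RNA and made into libraries with the ScriptSeq kit. The labels give both biosamples the same donor entry and do not give the sort gate, so the spread between the libraries may be technical in part. With 1 group there was no comparison of oxygen levels, and with 2 libraries no differential test was made.

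In a cell with enough oxygen, prolyl hydroxylases of the EGLN family modify prolines on the alpha subunits of the hypoxia-inducible factor (HIF), the VHL protein binds the modified subunit, and the proteasome destroys it. A separate hydroxylase, the product of Hif1an, modifies an asparagine and keeps coactivators away. When oxygen falls, both kinds of enzyme slow, the alpha subunit pairs with ARNT, and genes of glycolysis, blood vessel growth and mitophagy are switched on. The marrow where HSC reside is low in oxygen, and HIF function has been studied in them for its part in quiescence and glycolytic metabolism. This control acts mostly on the protein, which total RNA does not measure.

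Replicate 1 held 27901074 counts and replicate 2 held 48490188, over 69691 features. Levels are in TPM, the deposited abundance per transcript length, which sums to the same constant in each library, and the tables give an interval for each value. A gene was called detected at 1 TPM or more in both libraries. Detected protein-coding genes had a median log2 ratio (replicate 2 over replicate 1) of 0.29 on the TPM scale and of 0.04 on counts scaled by trimmed mean of M values (TMM). Protein-coding genes took 16.3% of TPM in replicate 1 and 20.3% in replicate 2. Of 10 markers of HSC and early progenitors, 9 were detected, with a summed level of 367 and 394 TPM in replicates 1 and 2. Flt3, at 57.9 and 53.2 TPM, and Cd48, at 16.1 and 12.4 TPM, mark multipotent progenitors and are used to gate HSC out. Without this pair 7 of 8 were detected, at 293 and 328 TPM, and Slamf1, a positive marker of HSC, was not, at 0.42 and 0.43 TPM. Neutrophil markers, with 8 of 8 detected, summed to 3087 and 1164 TPM in replicates 1 and 2. Erythroid markers, with 4 of 8 detected, summed to 32.3 and 103 TPM, and monocyte and macrophage markers, with 4 of 6 detected, summed to 368 and 171 TPM. Fewer cells of a type and less RNA per cell cannot be told apart in such bulk samples. Levels below are those of the HSC libraries, and the share of a member's RNA from progenitors or myeloid cells was not measured.

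The stretches that the hydroxylases act on frame the contrast between the alpha subunit genes, so the coding sequence around each target proline is shown, from the GRCm38 genome on the plus strand. The capitals mark the proline codon, at positions 402 and 577 of the longest Hif1a reading frame (transcript Hif1a-201) and at 405 and 530 of Epas1, and the codons before it encode leucine, any 2 residues, leucine and alanine.
Hif1a codon 402, chr12:73939674-73939736: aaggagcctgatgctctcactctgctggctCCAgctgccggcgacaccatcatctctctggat
Hif1a codon 577, chr12:73941961-73942023: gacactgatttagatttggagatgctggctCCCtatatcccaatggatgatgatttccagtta
Epas1 codon 405, chr17:86824555-86824617: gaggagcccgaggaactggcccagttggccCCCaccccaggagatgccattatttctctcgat
Epas1 codon 530, chr17:86827498-86827560: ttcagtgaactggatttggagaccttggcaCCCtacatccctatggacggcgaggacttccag

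Both genes encode 2 such sites, but of the alpha subunits only Hif1a was detected in the HSC libraries by the rule of 1 TPM in both. Hif1a (chr12:73901375-73947530, plus strand) encodes the broadly expressed alpha subunit. It had 12.4 TPM in replicate 1 and 18.3 TPM in replicate 2, from 3833 and 7638 counts. It was the highest of the 10 members in both libraries and ranked 2070 among the protein-coding genes, with 90.4% of them below it. Epas1 (chr17:86753700-86833410, plus strand), whose product HIF-2 alpha is best known from endothelium and from the kidney cells that make erythropoietin, had 2 counts in replicate 1 and 0 in replicate 2. Its deposited interval ended at 0.0142 TPM in replicate 1 and 0.00448 TPM in replicate 2. Per length, Hif1a stood 2729-fold above Epas1 in replicate 1, with a 95% interval of 755-fold to 22542-fold from the 3833 and 2 counts (exact binomial, covering counting error only). In replicate 2 the 7638 counts of Hif1a, set against a limit of 3 counts for Epas1 in that library, placed Hif1a at least 4007-fold higher. The third alpha subunit gene, Hif3a, was at 1.11 and 0.21 TPM in replicates 1 and 2, from 145 and 170 counts. By a rule of 10 counts in both libraries it was detected as well. The log2 ratio of Hif1a over Hif3a was 4.63 ± 1.79 (SD, n = 2), and Hif1a was above Hif3a with intervals apart in each library.

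Defining markers of endothelium, the tissue in which Epas1 is prominent, were mixed. Cdh5 had no count in either library and Kdr was at 0.05 and 0.20 TPM, while Pecam1, which blood cells also express, was at 8.13 and 9.46 TPM in replicates 1 and 2. The 7 endothelial markers summed to 18.3 and 23.2 TPM, with 5 of 7 detected.

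Arnt (chr3:95434388-95497240, plus strand), the constitutive partner of every HIF alpha subunit, had 4.65 and 5.99 TPM in replicates 1 and 2, from 1141 and 1953 counts. Hif1a exceeded Arnt by 1.49 ± 0.14 on the log2 scale (SD, n = 2), which is 2.81-fold, and the intervals of the genes did not overlap in either library. The Arnt paralog Arnt2, a partner used mainly in neurons, had no count in either library, so no ratio to it is given.

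The 3 EGLN prolyl hydroxylase genes were all detected and lay close together. Egln1 (chr8:124908587-124949324, minus strand) encodes PHD2, the main oxygen sensor acting on the alpha subunit in most cells, and had 3.12 TPM in replicate 1 and 5.03 TPM in replicate 2. Egln2 (chr7:27158658-27166802, minus strand), which encodes PHD1, had 3.89 and 4.30 TPM. Egln3 (chr12:54178981-54203860, minus strand), which encodes PHD3 and is itself a HIF target in many cell types, had 2.92 and 3.23 TPM. These levels rested on 894 and 2137 counts for Egln1, 619 and 1023 for Egln2, and 622 and 1013 for Egln3. The order of Egln1 and Egln2 turned between libraries, with Egln1 over Egln2 at -0.31 (log2) in replicate 1 and at 0.22 in replicate 2, so neither leads. Egln2 was above Egln3 by 0.40 on the log2 scale in each library, with intervals apart. Egln1 over Egln3 was 0.36 ± 0.38 (SD, n = 2), and their intervals overlapped in replicate 1.

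Hif1an (chr19:44562850-44576274, plus strand), the asparagine hydroxylase also called FIH, had 2.37 and 3.59 TPM in replicates 1 and 2, from 949 and 1413 counts. It stood below Egln1 by a log2 ratio of -0.43 ± 0.07 and below Egln2 by -0.47 ± 0.31 (SD, n = 2 each), with intervals apart in both libraries.

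Vhl (chr6:113623959-113631633, plus strand), the substrate receptor of the ubiquitin ligase that marks the alpha subunit, had 3.02 and 2.77 TPM from 678 and 916 counts. It was the member of lowest mean level among those detected, at 2.90 ± 0.177 TPM (SD, n = 2), and was not apart from Hif1an, Egln1 or Egln3. The other subunits of its complex were higher. Elob, the elongin B adaptor gene, was at 18.02 and 18.50 TPM, which put Vhl 6.14-fold lower (log2 ratio -2.62 ± 0.11). Elob had 492 and 637 counts in replicates 1 and 2, fewer than Vhl, so this order comes from the division by length. Cul2, the cullin scaffold gene, was at 5.83 and 7.36 TPM, at a log2 ratio of -1.15 ± 0.32 for Vhl over Cul2 (SD, n = 2 each). Both orders held in each library with intervals apart.

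Cited2 (chr10:17723218-17725674, plus strand) encodes a HIF target that competes with the alpha subunit for the coactivators p300 and CBP and is required for HSC maintenance in mice. It had 5.56 and 5.68 TPM in replicates 1 and 2, from 853 and 1270 counts. Cited2 over Hif1a was -1.40 ± 0.38 on the log2 scale (SD, n = 2). Its relative Cited4 was at 0.09 and 0.48 TPM from 8 and 62 counts, and Cited1 was listed at 0. Ep300, which encodes p300, was at 7.27 and 6.15 TPM, and its interval overlapped that of Cited2 in replicate 2.

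Bnip3 (chr7:138890836-138909519, minus strand) encodes a mitochondrial outer membrane receptor for mitophagy and is a classic HIF target. It had 5.58 and 5.70 TPM in replicates 1 and 2, from 593 and 1118 counts. Its paralog Bnip3l, the receptor that clears mitochondria from maturing red cells, was at 14.9 and 22.7 TPM, so Bnip3 was 3.23-fold lower (log2 ratio -1.69 ± 0.40, SD, n = 2). Fundc1, another mitophagy receptor gene, was also higher, at 7.80 and 12.1 TPM. Both receptors were above Bnip3 in both libraries with intervals apart.

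**Figure D1:**
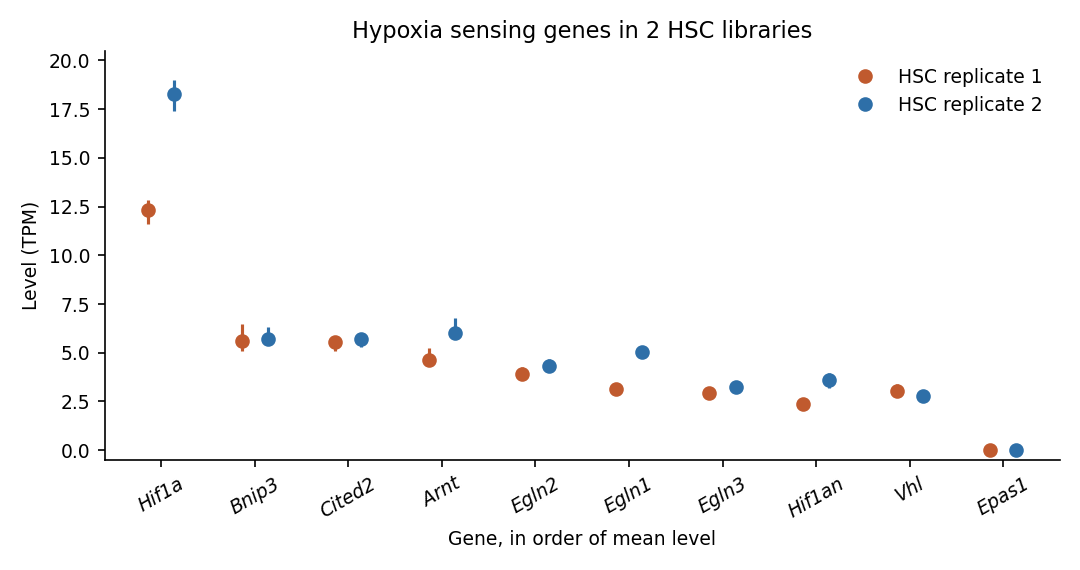
TPM of the 10 hypoxia sensing genes in each HSC library, in order of mean level. Points are the deposited TPM and vertical lines the deposited intervals. Hif1a, at 12.4 and 18.3 TPM, stands above the others, 8 genes lie between 2.37 and 5.99 TPM, and Epas1 lies at 0.

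Across the set, 9 of 10 members were detected, against 44.0% of protein-coding genes (9443 of 21474). The median of the 10 members, Epas1 included, was at 3.51 TPM in replicate 1 and 4.67 TPM in replicate 2. This was below the medians of 5.84 and 7.16 TPM over detected protein-coding genes. It was above those of 0.51 and 0.53 TPM over all protein-coding genes. Apart from Hif1a, each detected member lay below the median of detected protein-coding genes in both libraries. The members were chosen with earlier results of these data known, so the share detected is no test of the pathway. In order of mean level the genes ran Hif1a, Bnip3, Cited2, Arnt, Egln2, Egln1, Egln3, Hif1an, Vhl and Epas1. A pair was called apart when 1 gene was the higher in each library and the intervals overlapped in neither. By that rule 3 of 9 neighbours in the order were apart, namely Hif1a from Bnip3, Arnt from Egln2, and Vhl from Epas1. Bnip3, Cited2 and Arnt were not apart from one another, nor was Egln1 from Egln2, Egln3 or Vhl. Over all 45 pairs, 36 were apart.

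By the deposited transcript estimates, Hif1a RNA in the HSC libraries was a mixture of annotated forms. Reads over single exons or junctions were not counted. Hif1a-201 and Hif1a-202 both have 15 exons and share 13 of them. The first exon of Hif1a-202 starts 6529 bases upstream of that of Hif1a-201, and its reading frame opens at codon 13 of the longer frame. The starts of both reading frames are shown to make the difference visible, from GRCm38 on the plus strand, with the start codon in capitals.
Hif1a-201 start, chr12:73908290-73908324: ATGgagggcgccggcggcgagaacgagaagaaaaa
Hif1a-202 start, chr12:73926558-73926592: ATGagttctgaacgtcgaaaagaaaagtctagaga
A second difference lies in an exon between those that hold the proline codons, where Hif1a-202 lacks the 42 bases in capitals.
Hif1a exon difference, chr12:73941688-73941759: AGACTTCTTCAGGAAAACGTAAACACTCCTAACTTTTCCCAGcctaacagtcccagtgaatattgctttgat
In total Hif1a-202 has 78 fewer coding bases than Hif1a-201, and both proline codons are kept in each. The short coding form Hif1a-203, with 6 exons, holds neither.

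**Figure D2:**
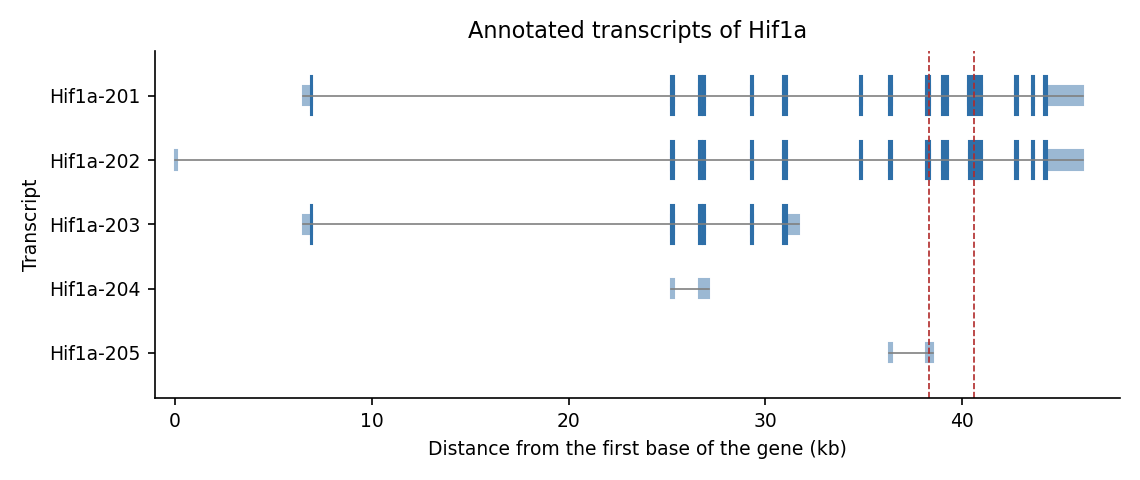
Exons of the 5 annotated Hif1a transcripts against distance from the first base of the gene in kilobases. Tall dark boxes are coding, low pale boxes are not coding, and dashed lines mark the proline codons at positions 402 and 577 of Hif1a-201. The 2 full-length forms differ in the first exon and share the rest of their coding exons but for 42 bases.

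Hif1a-202, the form with the upstream exon, was the leading transcript in both libraries. It had 7.33 TPM in replicate 1 and 7.06 TPM in replicate 2, and these intervals overlapped. Hif1a-201 had 2.66 TPM in replicate 1 and 6.25 TPM in replicate 2, and these intervals did not overlap. The deposited isoform percent, the percent of the gene's TPM in a transcript, was 59.4% and 38.6% for Hif1a-202 and 21.6% and 34.1% for Hif1a-201 in replicates 1 and 2. Hif1a-202 over Hif1a-201 was 2.76-fold in replicate 1, with intervals apart, and 1.13-fold in replicate 2, with intervals that overlapped. The estimated mixture thus leaned more to Hif1a-202 in replicate 1. Whether the lean lay in the first exon or in the 42 bases was not tested. Short noncoding forms accounted for most of the rest of the TPM, but for few of the counts. The retained-intron transcript Hif1a-204 had 1.35 and 2.13 TPM and the processed transcript Hif1a-205 had 0.54 and 2.86 TPM in replicates 1 and 2. Of the gene's counts Hif1a-204 held 1.53% and 1.62%, and Hif1a-205 held 0.352% and 1.17%. Hif1a-203 was at 0.46 and 0 TPM.

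Hif1an was the detected member whose leading transcript differed between libraries. The coding form Hif1an-201, with 8 exons, had 1.76 TPM in replicate 1 and 1.62 TPM in replicate 2, with overlapping intervals. Hif1an-202, a form of 2 exons and 868 bases that ends in 412 bases of intron 2, had 0.60 TPM in replicate 1 and 1.97 TPM in replicate 2, with intervals that did not overlap. The edge of the retained intron is shown from GRCm38 on the plus strand, with intron bases in capitals.
Hif1an exon 2 and intron 2, chr19:44563511-44563570: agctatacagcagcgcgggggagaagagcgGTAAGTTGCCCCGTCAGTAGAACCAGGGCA
Hif1an-202 held 3.72% of the gene's counts in replicate 1 and 11.3% in replicate 2, but 25.5% and 54.8% of its TPM, because TPM divides by length and the form is short. In replicate 2 the intervals of the coding and the retained-intron form overlapped, so which of them leads there is not resolved. The higher Hif1an TPM of replicate 2 thus lay in the TPM assigned to the noncoding form, from 35.27 and 159.38 counts in replicates 1 and 2. In these total RNA libraries, reads of unspliced RNA were not told apart from that form. The same limit applies to the other retained-intron forms.

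Arnt had 11 annotated transcripts, of which 10 had counts in at least 1 library. The coding Arnt-202 had the highest value in both, at 2.13 and 1.80 TPM in replicates 1 and 2, and held 45.9% and 30.1% of the gene's TPM. Arnt-204, a short coding form, had 1.09 and 1.40 TPM. The retained-intron form Arnt-209 had no count in replicate 1 and 1.41 TPM in replicate 2. In replicate 2 the interval of Arnt-202 overlapped those of Arnt-204 and Arnt-209, so its lead there is not resolved. Bnip3-201 carried 75.4% and 100% of the gene's TPM in replicates 1 and 2, with the retained-intron form Bnip3-204 at 1.01 and 0 TPM. Egln2-201 held 95.5% and 98.3%, and Egln1, Egln3, Vhl and Cited2 each had all of their deposited TPM in a single coding transcript.

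**Figure D3:**
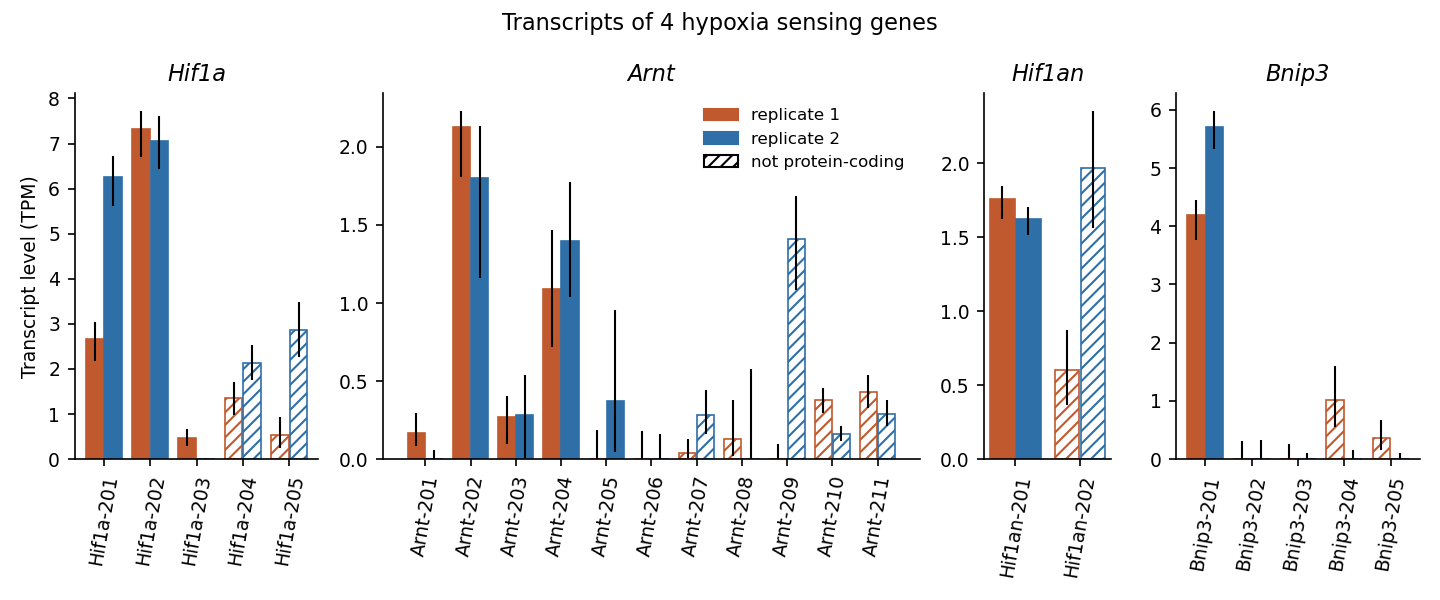
TPM of each annotated transcript of Hif1a, Arnt, Hif1an and Bnip3 in both HSC libraries. Filled bars are protein-coding transcripts, hatched bars are other transcripts, and black lines are the deposited intervals. Hif1a-201, Hif1an-202 and Arnt-209 are higher in replicate 2, and Hif1a-202 and Hif1an-201 have overlapping intervals between the libraries.

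Of the 6 detected members with more than 1 annotated transcript, 5 had the same leading transcript in both libraries, Arnt among them, against 75.0% of 7079 such protein-coding genes. Counting coding transcripts alone, Hif1a kept first place at 10.5 and 13.3 TPM in replicates 1 and 2. Arnt was then at 3.66 and 3.85 TPM, which moved it from place 4 to place 6 of the mean levels, below Egln1 and Egln2. Hif1an was at 1.76 and 1.62 TPM, at place 9. The coding share of TPM was 74.5% and 45.2% for Hif1an, 84.7% and 72.7% for Hif1a, and 78.9% and 64.2% for Arnt in replicates 1 and 2. Over detected protein-coding genes the median share was 97.7% and 99.7% and the lower quartile 73.8% and 77.1%, so the shares of these 3 genes were above the lower quartile in replicate 1 and below it in replicate 2. A lower coding share in replicate 2 was found for 28.1% of detected protein-coding genes. The effective lengths imply a mean fragment of 193 bases in replicate 1 and 245 in replicate 2, and the part of this difference in the transcript split was not tested.

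The replicates were then set against each other. Genes were called apart at a mean of 1 TPM or more, over 2-fold and with intervals that did not overlap, which took in 11.5% of 10958 annotated genes, 7.36% higher in replicate 2 and 4.18% higher in replicate 1. None of the 9 detected members was apart, a count near that general share. The intervals did not overlap for 4 of the 9, Hif1a, Arnt, Egln1 and Hif1an, all higher in replicate 2. By that measure the intervals did not overlap for 70.7% of the 10958 genes, 55.2% being higher in replicate 2. Egln1 was furthest apart, at 1.59-fold.

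On the TPM scale 8 of 9 detected members were higher in replicate 2, as were 7043 of 9443 detected protein-coding genes. That scale itself leans to replicate 2 by the median of 0.29, so each direction was read on 4 scalings. Hif1a was higher in replicate 2 on all 4, at log2 ratios of 0.19 to 0.56, and so was Egln1, at 0.37 to 0.67. Vhl was lower in replicate 2 on all 4, at -0.44 to -0.12. The direction of the other 6 turned with the scaling. Hif1an ran from -0.23 on TMM-scaled counts to 0.58 on TPM, and Cited2 ran from -0.28 on TPM rescaled over protein-coding genes to 0.03 on TPM. Summed erythroid markers were higher and summed neutrophil markers lower in replicate 2, as given above, and their part in these differences was not tested.

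**Figure D4:**
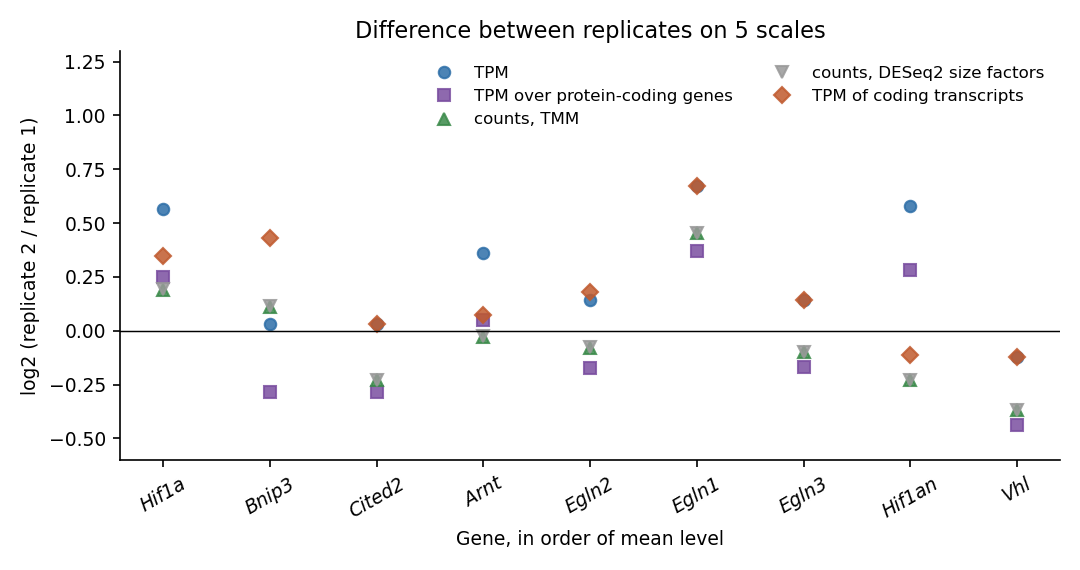
Log2 ratio of replicate 2 over replicate 1 for the 9 detected members on 5 scales, being 4 scalings of the gene values and the TPM of coding transcripts. The horizontal line is at 0. Hif1a and Egln1 lie above the line and Vhl below it on each scale, and Hif1an crosses it.

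Reads of a gene and of an overlapping or near-identical one can be hard to part, so such neighbours were looked up. The antisense gene Gm15283 over Hif1a had 18 and 0 counts in replicates 1 and 2. The processed pseudogene Vhl-ps1 and the Egln2 neighbour Cyp2t4 had no count. Other annotated overlaps, Gm49321 with Hif1a, Gm42672 with Arnt, and Gm45507 and Gm18258 with Bnip3, were not analysed here. The deposited posterior SD of the gene count was 0 in both libraries for 8 of the 9 detected members, and 0.1 for Bnip3 in replicate 2.

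The members also differ in the HIF core motif near their starts. The letters ACGTG or GCGTG, on either strand, were searched in windows of 300 bases around RefSeq gene starts (GRCm38.p6). Of 32851 such windows, 43.8% held at least 1 match and 8.93% held 3 or more. A match was present for 7 of the 9 members with a window. Matches were counted per strand, so 1 CACGTG gave 2 of them. Bnip3 had 5 matches, Egln2 had 6 in one of its 2 windows and 1 in the other, and Hif1a had 3. In Hif1a 2 of the 3 were the strands of 1 CACGTG. The Hif1a window lies at the first exon of Hif1a-201, and the upstream start of Hif1a-202 was not searched. Cited2 and Egln1 had 2 each, Arnt and Egln3 had 1 each, and the windows of Hif1an and Vhl held none. A match is a run of letters and not a bound site.

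Around the members, other genes of oxygen sensing and response were described from 7 lists of 92 different genes. Of these, 63 (68.5%) were detected, against 44.0% of all protein-coding genes, the share to set beside each list below. Among HIF subunits and paralogs, 2 of 9 were detected, the clock factor gene Arntl at 1.82 and 2.52 TPM and the aryl hydrocarbon receptor gene Ahr at 1.09 and 1.07 TPM in replicates 1 and 2, and 5 of 9 had no count. Of the VHL ligase and turnover list, 8 of 10 were detected, led by Os9 at 17.5 and 29.6 TPM, Eloc, the elongin C gene, at 29.6 and 16.6 TPM, and Elob. The lowest were P4htm, a transmembrane prolyl hydroxylase gene, at 0.34 and 1.09 TPM and Usp20, a deubiquitinase gene, at 1.17 and 0.87 TPM. Of the coactivators and CITED relatives 4 of 6 were detected, led by the acetyltransferase genes Kat5, at 8.59 and 7.47 TPM, Ep300, and Crebbp, at 5.83 and 4.98 TPM.

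Glycolytic targets of HIF were detected in 18 of 20 cases, at medians of 13.3 and 19.0 TPM. Gapdh led at 118 and 181 TPM, followed by the lactate dehydrogenase gene Ldha at 49.5 and 58.7 TPM and Gpi1 at 47.7 and 59.0 TPM in replicates 1 and 2. Eno2, the neuronal enolase gene, was lowest at 0.41 and 1.14 TPM, and the lactate exporter gene Slc16a3 followed at 1.42 and 0.41 TPM. Of the other targets 15 of 28 (53.6%) were detected, nearer the 44.0% of protein-coding genes, at medians of 1.72 and 2.47 TPM over the list. Bnip3l, the stress response gene Ndrg1, at 13.0 and 23.3 TPM, and the chemokine receptor gene Cxcr4, at 16.0 and 19.9 TPM, were highest. Epo, the erythropoietin gene, had no count.

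Of the mitophagy partners of Bnip3, 12 of 14 were detected, at medians of 12.9 and 17.9 TPM, above the 5.58 and 5.70 TPM of Bnip3. The autophagy receptor gene Sqstm1 was at 60.2 and 91.6 TPM, Gabarap at 40.8 and 43.1 TPM and Becn1 at 28.6 and 28.1 TPM in replicates 1 and 2, while Map1lc3a was at 0.41 and 0.98 TPM. Other oxygen-dependent enzymes were detected in 5 of 6 cases, with the histone demethylase genes Kdm5a at 23.4 and 34.9 TPM, Kdm6a at 11.8 and 8.38 TPM and Kdm5b at 9.33 and 7.79 TPM. Ado, the thiol dioxygenase gene, was at 2.86 and 4.38 TPM.

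**Figure D5:**
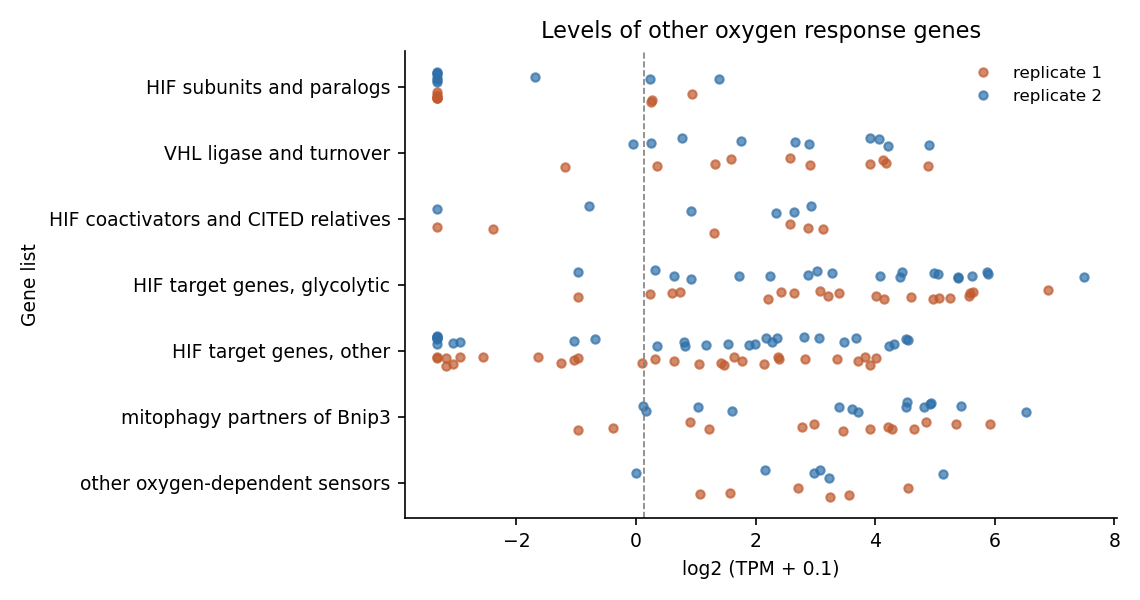
Level of each gene of 7 lists in both HSC libraries, as log2 of TPM plus 0.1, with points spread vertically at random within a row. The dashed line marks 1 TPM. Glycolytic targets (18 of 20 detected) and mitophagy partners (12 of 14) lie mostly to the right of the line, and HIF subunits and paralogs (2 of 9) mostly to the left.

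Between the replicates 4 of the 68 list genes with a mean of 1 TPM or more were apart, 5.88% against the 11.5% of all genes. Of these, 3 were HIF targets higher in replicate 2 on the TPM scale. Vegfa, the vascular growth factor gene, had 5.12 TPM in replicate 1 and 12.8 TPM in replicate 2, from 920 and 3852 counts. Ddit4, an inhibitor of mTORC1 signalling, had 0.41 and 1.67 TPM from 53 and 312 counts. Car9, a carbonic anhydrase gene, had 0.39 and 2.15 TPM from 61 and 213 counts. Ddit4 was apart on all 4 scalings, while Vegfa was just short of 2-fold on TPM rescaled over protein-coding genes (log2 ratio 1.00) and Car9 on TMM-scaled counts (0.97). Kdm6b, at 2.01 and 0.90 TPM, was higher in replicate 1 on TPM but not apart on counts. The balance turned with the scale and with the floor of 1, which on rescaled TPM was applied to the rescaled mean. On TPM rescaled over protein-coding genes 3 list genes were apart and higher in replicate 2, and 5 were higher in replicate 1, among them the HIF targets Slc16a3 (log2 ratio -2.06) and Hmox1 (-1.41). On TPM, Slc16a3 also passed the fold and interval rules (-1.58), but its mean of 0.915 TPM was below the floor. So did Hif3a (-1.96) and Cox4i2 (-1.68), and in the other direction Cited4 (1.61), Eno2 (1.28) and Map1lc3a (1.08). On TMM-scaled counts 2 were higher in replicate 2 and 0 in replicate 1. Of the 8 erythroid markers 6 were higher in replicate 2 on TPM, a share near that of detected protein-coding genes (7043 of 9443). Car1 led at 9.74 and 66.9 TPM in replicates 1 and 2, and 2 of the markers were lower, among them Hbb-bs at 4.59 and 3.23 TPM. The part of erythroid cells in the differences of the targets was not tested. Of the members known as HIF targets, Egln1 had a log2 ratio of 0.67 on TPM, Egln3 of 0.14, and Bnip3 and Cited2 of 0.03 each. The Bnip3 value depends on 2 short retained-intron forms, Bnip3-204 and Bnip3-205. They had 17.19 and 8.0 counts in replicate 1 and 0 in replicate 2. On coding transcripts alone Bnip3 was at 0.43, and over the 4 scalings of the gene values it ran from -0.28 to 0.11.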

How the data were processed

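Both HSC libraries were analysed from their gene and transcript tables. The authors deposited, per the file headers, expected counts (estimated, not always whole), TPM, FPKM, posterior means of these, interval bounds on the TPM scale, treated here as a score without a stated level, and isoform percent. The tables use mm10 and GENCODE M4, per the sample text files. No source used here names the aligner or counter. Symbols and transcript names were taken from GENCODE M21 by unversioned identifier.

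The members and lists were chosen with earlier results of these data known. All members, the 3 highest and 2 lowest genes of each list, pair genes and list genes apart were named. Some genes that this takes are not reported here. Hmox1, Cox4i2 and the single markers Slamf1, Flt3, Cd48, Cdh5, Kdr, Pecam1, Car1 and Hbb-bs, not taken by that rule, were picked once their values had been seen. Ratios used a pseudocount of 0.1 TPM. TMM (edgeR 4.0.16) and DESeq2 1.42.0 size factors were estimated on rounded expected counts of the 13818 genes that reached 10 counts in each library. Floors of 3 counts equal 0.108 and 0.0619 CPM in replicates 1 and 2 and cover counting error only. Coding-transcript TPM and the HSC markers without Flt3 and Cd48 were alternatives chosen after seeing the data. Tools were Python 3.11.15, pandas 2.3.3, numpy 2.4.6, scipy 1.17.1, matplotlib 3.10.9 and R 4.3.3.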

Additional observations from a re-analysis of the deposited data

How the results depend on the processing

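Of 31 alternatives for the main counts, 24 gave values within 1.5 times. At 5 TPM in both libraries 3 of 10 members were detected in place of 9. Neighbours apart in the order numbered 5 by direction alone, and 5 to 5 with either library left out, in place of 3. At a fold over 1.5 members apart numbered 1 (Egln1) in place of 0. List genes apart numbered 8 on TPM rescaled over protein-coding genes and 2 on TMM-scaled counts, in place of 4. On rescaled TPM the threshold of 1 was applied to the rescaled values. List genes detected ran from 43 at 5 TPM to 76 at 10 counts in both libraries or on rescaled TPM, in place of 63. Under these last 2 settings Hif3a was detected too, and the HIF subunits and paralogs numbered 3 in place of 2. No pair called ordered turned its direction. Of the 18 pair ratios, 6 moved beyond their SD at a pseudocount of 1 TPM and 3 at 0.01 TPM. At both settings these included Hif1a/Epas1, Arnt/Arnt2 and Egln2/Egln3, the last with an SD near 0. At 1 TPM they also included Hif1an/Egln1 (log2 ratio -0.34 in place of -0.43), Vhl/Elob (-2.31 in place of -2.62) and Cited2/Cited4 (2.38 in place of 4.11). The replicate log2 ratios of Arnt, Egln2, Egln3, Hif1an, Cited2 and Bnip3, which have no SD, changed sign with the scaling. No paired analysis was possible because there is 1 group. With 2 libraries the SDs are themselves imprecise, and the intervals cover estimation within a library, not the spread between animals.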
